A study of Mus musculus with 9 samples.

Results

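The genes described here encode RNA polymerase II (pol-II) and the general transcription factors that assemble with it at promoters. They are the genes whose array symbol starts with Polr2 or Gtf2, or reads Taf followed by a digit, together with Tbp and Tbpl1. Taf1a to Taf1d, which serve RNA polymerase I, and the Gtf2i family were left out. The rule gave 47 genes of the 19938 that a probe set with a single symbol measured, and each gene was read from the probe set with the highest mean over the 9 arrays.

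Pol-II copies the protein-coding genes of the nucleus. At a promoter, TFIID, made of the TATA-binding protein TBP and its associated factors (TAFs), is bound first, TFIIA and TFIIB stabilise it and connect it to the polymerase, TFIIF travels with the polymerase, and TFIIE and TFIIH complete the complex, TFIIH by opening the DNA and phosphorylating the tail of the largest polymerase subunit. Mediator is the large coactivator that bridges this machinery and DNA-bound activators such as NF-κB, the factor that the cytokine TNF-α switches on, and Trap-80, encoded by Med17, is one of its subunits.

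The study asked how the NF-κB subunit p65 uses Mediator at its target promoters, and measured total RNA on Affymetrix Mouse Gene ST arrays in 3T3 cells, an immortalised mouse embryonic fibroblast line. Trap-80 knock-down cells, which express an shRNA against Trap-80, were stimulated with 5 ng/ml TNF-α for 1 h (n = 3 arrays). Wild-type cells, which carry an irrelevant shRNA, were either stimulated in the same way (n = 3) or left unstimulated (n = 3). The methods and legends of the study describe clonal lines, of which a single clone per shRNA was followed further, and the labels do not name the line behind the 3 knock-down arrays, so a property of a clone and an effect of the knock-down cannot be told apart. Unstimulated knock-down cells are not part of the comparisons below. The methods describe independent samples within each group.

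Promoter sequences of 4 genes on which the comparisons below turn are given first, as the 250 bases before the first RefSeq start of each gene (GRCm38.p6), read on the gene's own strand. Capitals mark the TATA box letters TATAAA, the CCAAT box letters CCAAT and the GC box letters GGGCGG, the site of Sp1-type factors, each searched on both strands. Taf9b (chrX:106221159-106221408, minus strand) and Gtf2a1 (chr12:91590488-91590737, minus strand) are the genes called higher in the knock-down, Polr2a (chr11:69758634-69758883, minus strand) encodes the largest pol-II subunit, and Polr2i (chr7:30231824-30232073, plus strand) had the most negative difference after TNF-α.
Taf9b: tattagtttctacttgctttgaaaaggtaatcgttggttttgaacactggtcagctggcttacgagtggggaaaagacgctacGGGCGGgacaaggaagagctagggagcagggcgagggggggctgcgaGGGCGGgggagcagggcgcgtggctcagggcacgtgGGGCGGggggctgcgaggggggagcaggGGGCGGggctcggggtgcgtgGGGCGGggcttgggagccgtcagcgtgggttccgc
Gtf2a1: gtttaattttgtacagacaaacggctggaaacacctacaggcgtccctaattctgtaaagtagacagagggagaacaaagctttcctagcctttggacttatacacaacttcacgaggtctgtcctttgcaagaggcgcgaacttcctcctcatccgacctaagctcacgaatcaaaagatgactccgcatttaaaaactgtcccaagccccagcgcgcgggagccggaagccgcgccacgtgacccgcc
Polr2a: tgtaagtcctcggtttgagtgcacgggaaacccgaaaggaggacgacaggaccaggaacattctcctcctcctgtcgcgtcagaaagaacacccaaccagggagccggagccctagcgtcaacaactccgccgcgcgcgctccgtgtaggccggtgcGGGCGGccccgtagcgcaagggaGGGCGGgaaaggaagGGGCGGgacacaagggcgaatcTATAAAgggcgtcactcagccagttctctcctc
Polr2i: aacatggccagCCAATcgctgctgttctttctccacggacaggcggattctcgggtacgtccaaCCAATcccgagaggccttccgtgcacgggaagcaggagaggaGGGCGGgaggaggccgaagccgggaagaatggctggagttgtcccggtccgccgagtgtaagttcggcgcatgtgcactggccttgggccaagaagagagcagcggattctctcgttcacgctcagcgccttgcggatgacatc
The Taf9b window held 5 GC boxes, which began 167, 120, 84, 56 and 35 bases before the start, while the Gtf2a1 window held none of the searched letters. RefSeq lists 2 starts for each of these genes, and the windows before the second starts, not printed here, held none of the searched letters. The Polr2a window had a TATAAA 33 bases before the start and GC boxes at 93, 70 and 55 bases. The Polr2i window had CCAAT at 239 and 186 bases and a GC box at 144 bases before the start.

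A RefSeq promoter was at hand for 40 of the 47 genes. A gene with several listed starts was counted if the window before any of them held the letters. Its highest GC content was taken. GGGCGG was found for 26 of these 40 genes (65.0%), against 35.4% of 27025 genes, and the median GC content was 62.4%, against 52.8% over all genes. The 27025 genes were not matched to the 40 for array signal, so these shares do not compare genes of like expression. TATAAA was found for 9 genes (22.5%, against 14.3%) and CCAAT for 13 (32.5%, against 37.5%). The letters CCGGAAGT, bound by ETS factors, were found for 5 genes (12.5%, against 3.23%). A narrow form of the κB site of NF-κB, with its central bases free and all its other bases fixed, was in 0 of 40, against 1.65% of all genes. κB sites that differ from this form at a fixed base were not searched, so their presence was not tested. No motifs overlapped in the printed windows. These are matches of letters and were not tested as binding sites.

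The array values are log2 intensities from the RMA method, so a difference of 1 is a doubling of signal. The 47 genes were well detected as a group, with a median signal of 7.71 against 5.02 over the 23410 probe sets that carry a gene name. Polr2f, a small subunit shared by all nuclear RNA polymerases, had the highest mean, with 10.36, 10.47 and 10.27 in stimulated knock-down cells, 10.18, 10.16 and 9.97 in stimulated wild-type cells and 10.30, 10.31 and 10.06 in unstimulated wild-type cells. Taf7l, a TAF of male germ cells, had the lowest, with 2.31, 2.31 and 2.21 in stimulated knock-down cells, 2.31, 2.61 and 2.15 in stimulated wild-type cells and 2.49, 2.35 and 2.30 in unstimulated wild-type cells. Only 4 genes lay below the median of all deposited probe sets (4.51): the germ-cell paralogs Taf7l, Taf7l2 and Gtf2a1l, and Taf7.

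**Figure D1:**
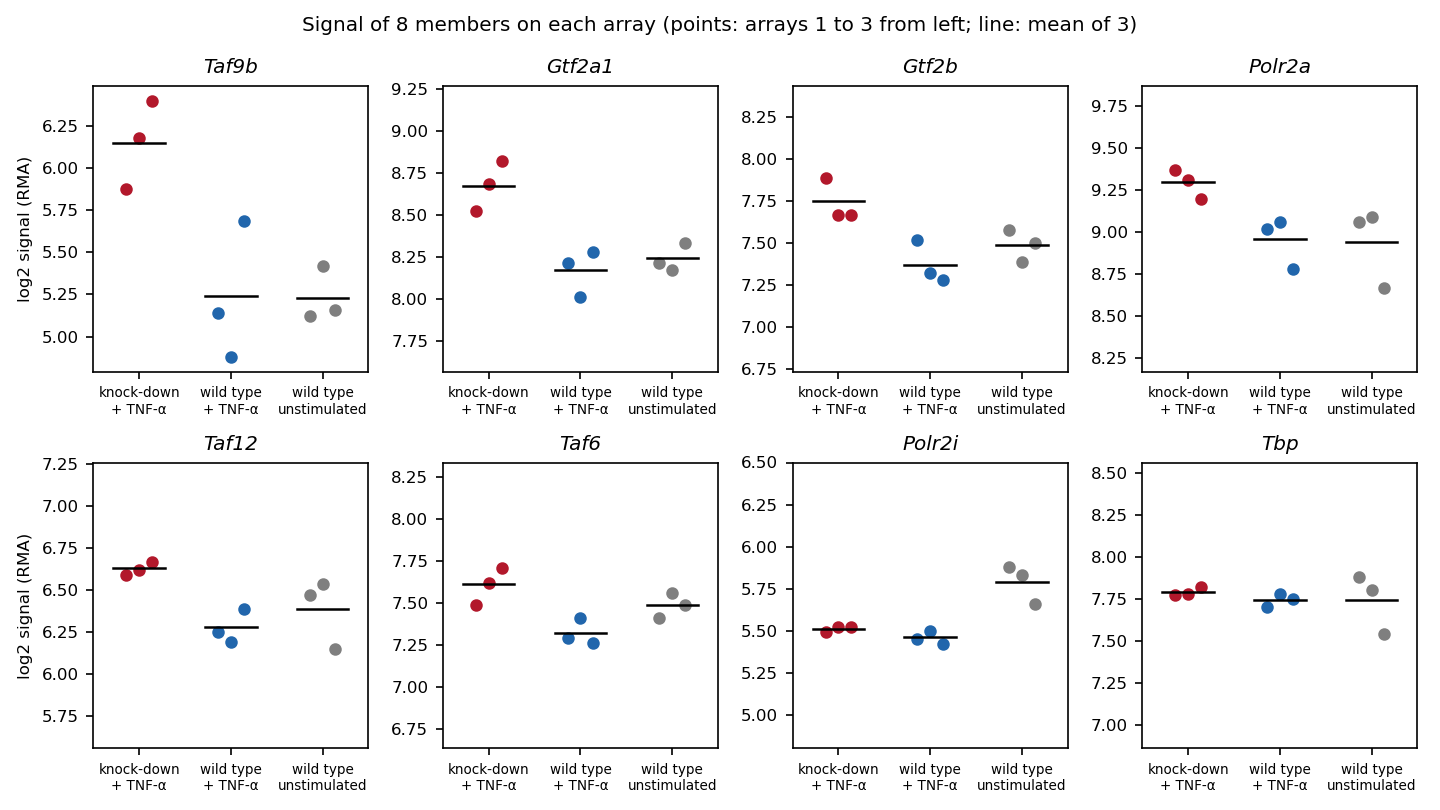
Log2 RMA signal (vertical axis) on each of the 9 arrays for genes of the pol-II machinery, with knock-down arrays on the left, stimulated wild-type arrays next and unstimulated wild-type arrays on the right; points are arrays, lines are group means and each panel has its own range of the same length. Taf9b and Gtf2a1 lie higher on all 3 knock-down arrays than on any wild-type array, while the Tbp arrays of the 3 groups overlap.

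Med17 had 6.35, 6.22 and 6.17 on the knock-down arrays and 7.98, 7.93 and 7.77 on the stimulated wild-type arrays, a difference of -1.64 (SE 0.09, limma adjusted p = 4.8e-05), or 32% of the wild-type signal; the exact permutation p of 0.1 is the smallest that 3 against 3 arrays can give. All 8 fibroblast markers lay above the median of named probe sets on every array, with medians of 10.45, 10.77 and 10.78 in stimulated knock-down, stimulated wild-type and unstimulated wild-type cells, while 1 of 14 epithelial, endothelial and leukocyte markers did so (Cd68). Array medians over named probe sets lay between 4.95 and 5.09. The third unstimulated array stood apart for the pol-II machinery. On it, 31 of the 47 genes (66.0%) were lowest of their group, against 31.4% of all named probe sets. The median deviation of the 47 genes from each gene's mean over all arrays was -0.08 there. On the first and second unstimulated arrays it was 0.07 and 0.03. The third stimulated wild-type array was lowest for 24 genes (51.1%, against 37.7%), and the first knock-down array for 23 (48.9%, against 33.4%). Whole-culture RNA was measured, so fewer cells of a kind and less RNA per cell cannot be told apart.

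**Figure D2:**
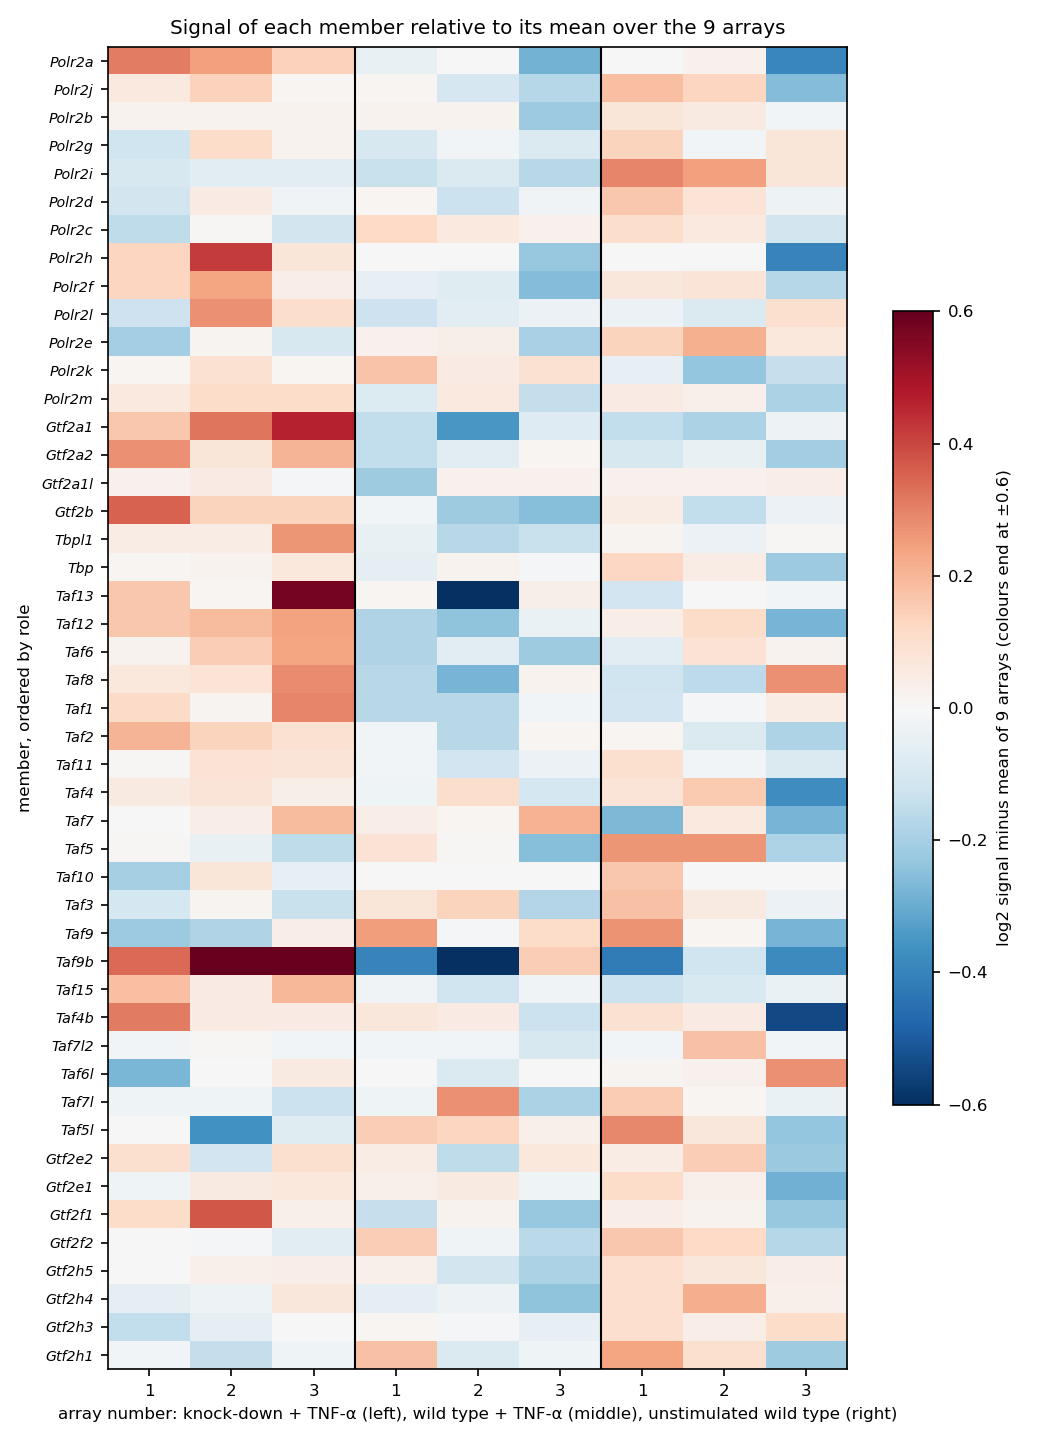
Each row is a gene of the pol-II machinery and each column an array, with knock-down arrays on the left, stimulated wild-type arrays next and unstimulated wild-type arrays on the right; colour is the log2 deviation of the array from the gene's mean over the 9 arrays, and values past the ends of the scale take the end colour. The third unstimulated array is pale to low for most genes (median deviation from the gene's mean over the 9 arrays -0.08), and Taf9b has the strongest contrast between knock-down and wild-type arrays.

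Most genes of the machinery had nearly the same signal in stimulated knock-down cells and in stimulated wild-type cells, with 2 genes called higher and 0 lower in the knock-down (limma with Benjamini-Hochberg adjustment over 23410 probe sets, threshold 0.05). Those 2 genes, Taf9b and Gtf2a1, are 4.26% of the 47, against 3.36% of all probe sets called higher and 5.90% of those brighter than the median; 2.60% of all and 4.49% of the brighter probe sets were called lower. The median difference was 0.08, against -0.02 over all probe sets and 0.01 over the brighter ones, to which 43 of the 47 genes belonged. Of the 47, 33 (70.2%) had a difference above 0, against 45.4% of all probe sets and 51.9% of the brighter ones. In 17 genes (36.2%) all 3 knock-down arrays lay above all 3 stimulated wild-type arrays, against 10.9% of all probe sets and 18.5% of the brighter ones, and in 2 genes (4.26%) they all lay below, against 10.0% and 14.5%. At an unadjusted p under 0.05, 14 genes (29.8%) were higher, against 9.34%, and 0 were lower, against 8.09%. Differences spanned -0.25 to 0.91, 37 of 47 were within 1.2-fold, and for 40 the 95% interval stayed within 1.5-fold.

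Each of the 2 calls was lost when knock-down array 2 or 3, or stimulated wild-type array 1 or 2, was left out, so that 0 genes were then called. With array number as a block, 4 genes were called higher (8.51%, against 4.94% of all probe sets) and 0 lower (against 4.07%), as Gtf2b and Polr2a passed too. The block paired same-numbered arrays, a pairing read from their correlated deviations and not given by the labels. After centring each array on its median, 4 genes were again called higher, and the calls over all probe sets divided into 4.11% higher and 1.94% lower, in place of 3.36% and 2.60%.

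**Figure D3:**
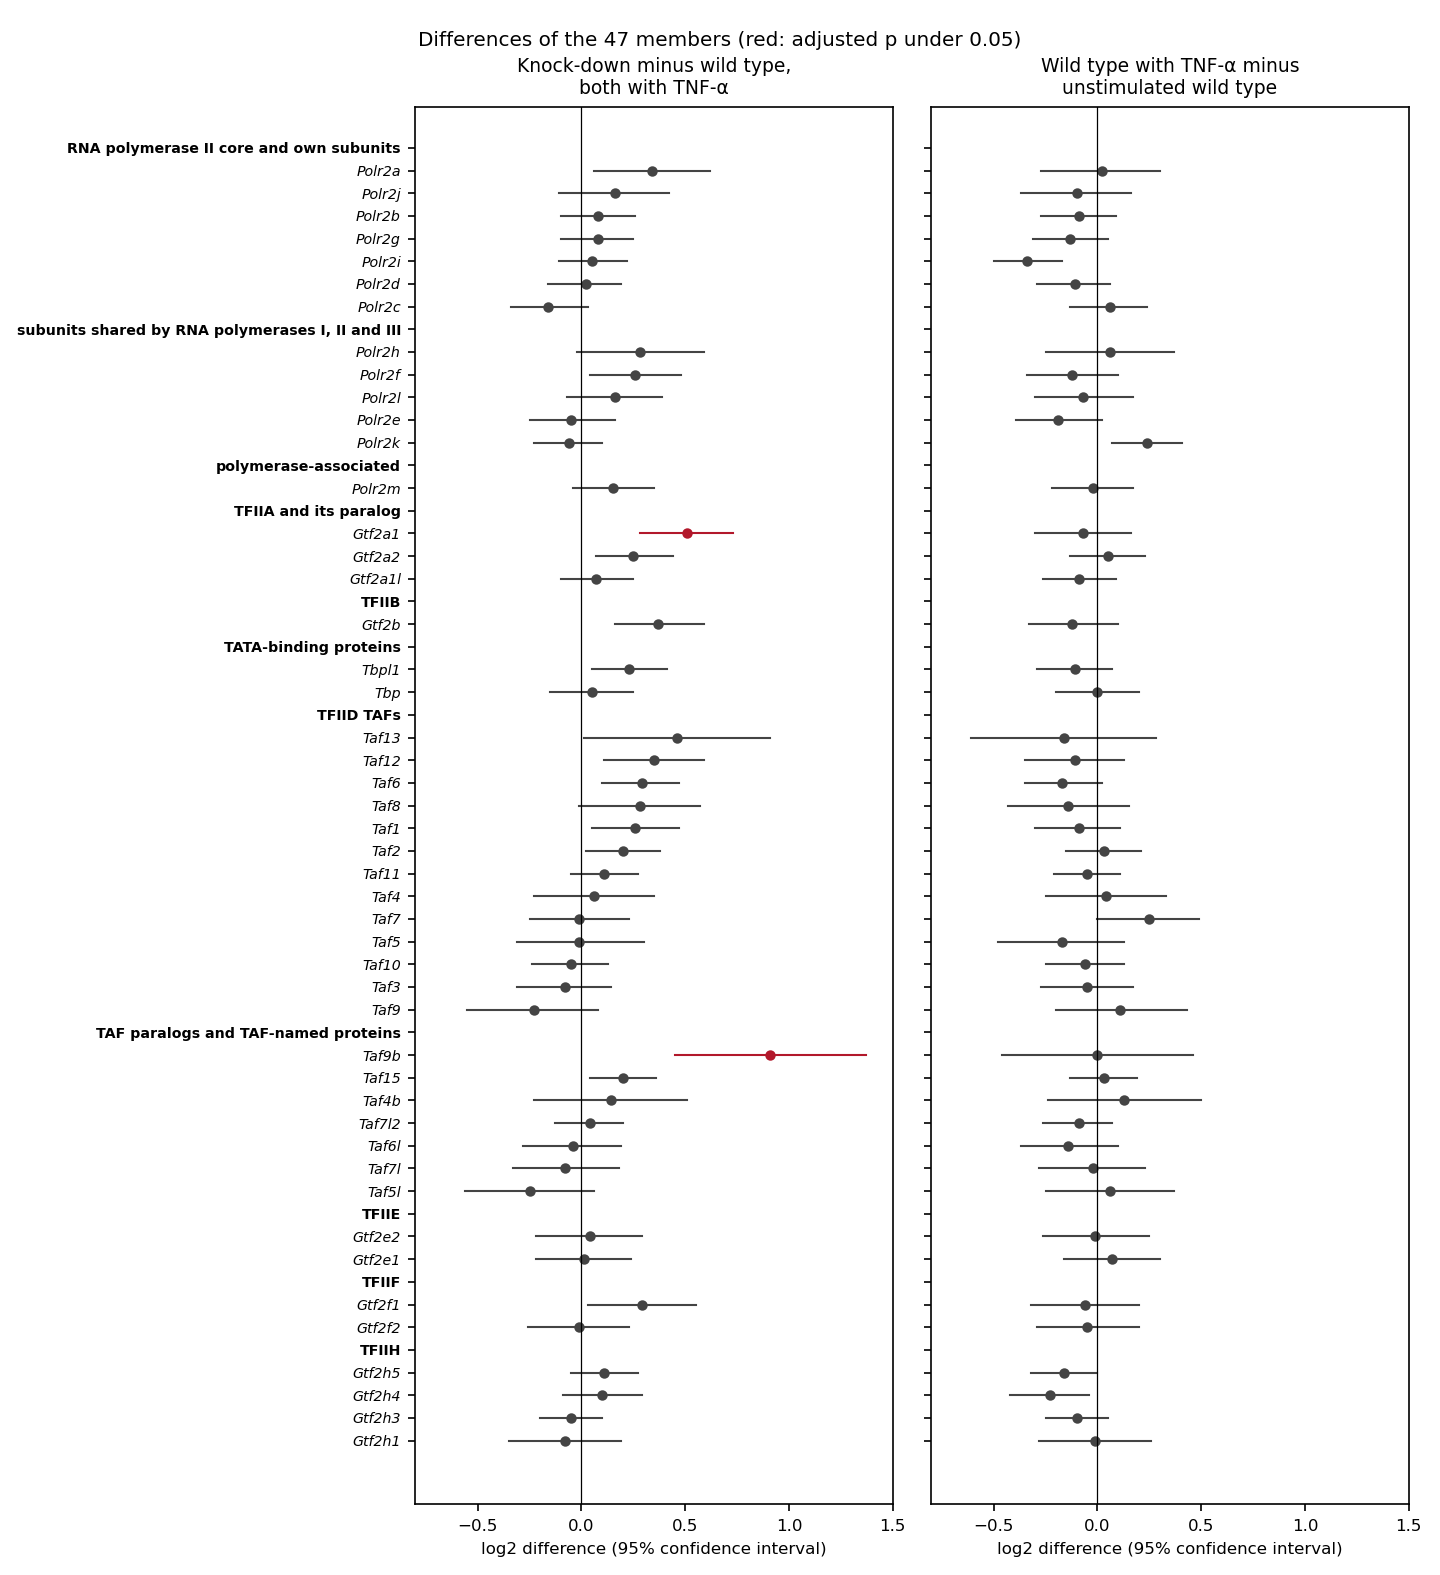
Log2 difference of each gene of the pol-II machinery (horizontal axis), with its 95% interval from limma, for stimulated knock-down minus stimulated wild type and for stimulated minus unstimulated wild type; rows are genes ordered by complex. Most intervals include 0, and in the knock-down the points of Taf9b (0.91) and Gtf2a1 (0.51) lie farthest to the right.

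**Figure D4:**
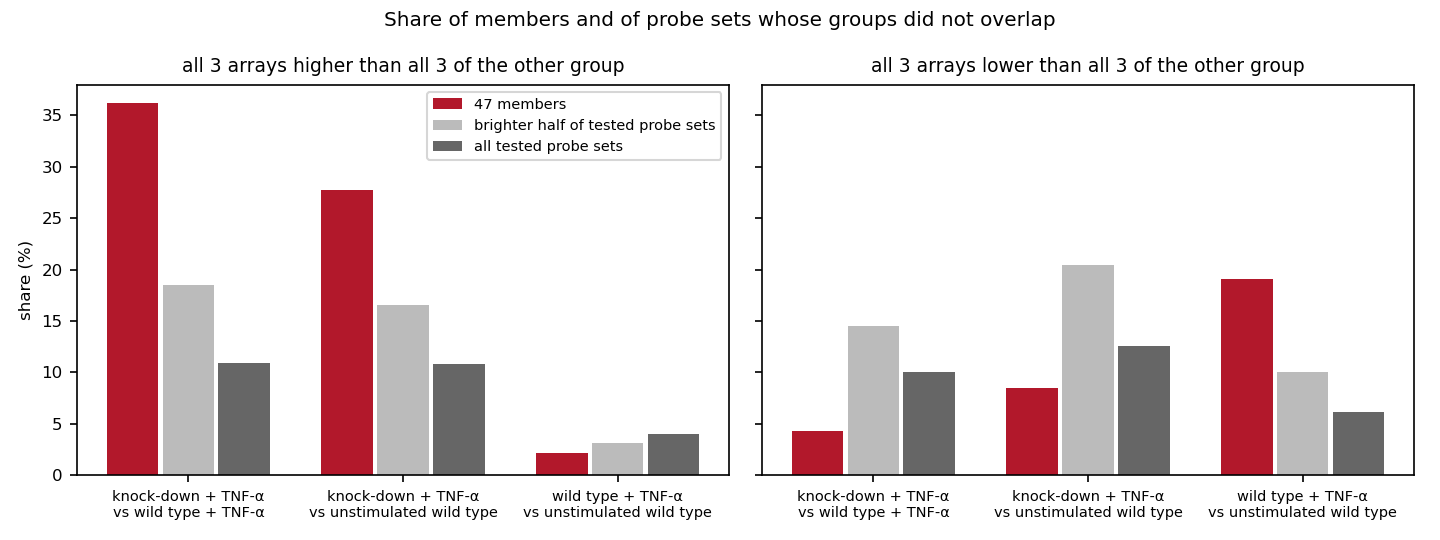
Percent of features (vertical axis, from 0) whose 3 arrays in the first-named group all lie above, or all below, the 3 arrays of the second, for the 47 genes of the pol-II machinery, all named probe sets and those brighter than the median. In the knock-down difference 36.2% of the 47 genes lay wholly above and 4.26% wholly below, against 18.5% and 14.5% of the brighter probe sets.

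TFIIA, which holds TBP on DNA, supplied 1 of the 2 called genes. Its large subunit gene Gtf2a1, whose protein is cleaved into the alpha and beta chains, had 8.52, 8.68 and 8.82 in knock-down cells, 8.21, 8.01 and 8.28 in stimulated wild-type cells and 8.21, 8.17 and 8.33 in unstimulated wild-type cells. All knock-down arrays lay above all wild-type arrays, stimulated or not. Its knock-down difference was 0.51 (SE 0.10, limma adjusted p = 0.02), a 1.42-fold higher signal, and the adjusted p without one array was between 0.023 and 0.073. Gtf2a2, the small subunit gene, had 6.84, 6.64 and 6.77 in knock-down cells, 6.42, 6.50 and 6.58 in stimulated wild-type cells and 6.47, 6.52 and 6.36 in unstimulated wild-type cells. Its groups did not overlap either, but the difference of 0.25 (SE 0.08, limma adjusted p = 0.12) did not pass the threshold. The germ-cell paralog Gtf2a1l differed by 0.07.

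Gtf2b encodes TFIIB, the single protein that joins TBP to the polymerase. It had 7.89, 7.67 and 7.67 in knock-down cells, 7.52, 7.32 and 7.28 in stimulated wild-type cells and 7.58, 7.39 and 7.50 in unstimulated wild-type cells. The knock-down arrays lay above both sets of wild-type arrays, and the difference from stimulated wild type was 0.37 (SE 0.10, 95% interval 0.16 to 0.59). The limma adjusted p was 0.056, and 0.014 with array number as a block.

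Among the TAFs, Taf9b had the largest difference of all 47 genes. It encodes a close relative of Taf9, with the same histone-like fold, that is found in TFIID and in the coactivator SAGA. It had 5.88, 6.18 and 6.40 in knock-down cells, 5.14, 4.88 and 5.69 in stimulated wild-type cells and 5.12, 5.42 and 5.16 in unstimulated wild-type cells. All knock-down arrays lay above all wild-type arrays, although the spread within the groups was wide. The difference was 0.91 (SE 0.20, 95% interval 0.45 to 1.37, limma adjusted p = 0.031), a 1.88-fold higher signal, with adjusted p between 0.0084 and 0.12 when one array was left out. Taf9 itself had 7.82, 7.86 and 8.08 in knock-down cells, 8.29, 8.03 and 8.15 in stimulated wild-type cells and 8.31, 8.05 and 7.76 in unstimulated wild-type cells. Its groups overlapped, and its difference of -0.23 (SE 0.14, limma adjusted p = 0.45) was not called. RefSeq lists a pseudogene named for Taf9, whose transcripts the array may not separate.

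Of the 13 TFIID TAFs, 8 had a difference above 0 and 6 had knock-down arrays wholly above the stimulated wild-type arrays, against 10.9% of all and 18.5% of the brighter probe sets, but 0 passed the threshold. Without adjustment, 5 were higher, against 9.34% of all probe sets, and 0 lower, against 8.09%. Their median was 0.11. Taf12, the histone-fold partner of Taf4, had 6.59, 6.62 and 6.67 in knock-down cells, 6.25, 6.19 and 6.39 in stimulated wild-type cells and 6.47, 6.54 and 6.15 in unstimulated wild-type cells. Taf6, the partner of Taf9, had 7.49, 7.62 and 7.71 in knock-down cells, 7.29, 7.41 and 7.26 in stimulated wild-type cells and 7.41, 7.56 and 7.49 in unstimulated wild-type cells. The knock-down differences were 0.35 for Taf12 (SE 0.11, limma adjusted p = 0.1) and 0.29 for Taf6 (SE 0.08, limma adjusted p = 0.082); for Taf6 the unstimulated wild-type arrays overlapped the knock-down arrays.

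Taf1, the largest TAF and the scaffold of TFIID, had 8.29, 8.19 and 8.47 in knock-down cells, 8.01, 8.01 and 8.16 in stimulated wild-type cells and 8.06, 8.17 and 8.22 in unstimulated wild-type cells. The difference from stimulated wild type was 0.26 (SE 0.09, limma adjusted p = 0.16). Taf13, the partner of Taf11, had 7.72, 7.57 and 8.13 in knock-down cells, 7.57, 6.89 and 7.59 in stimulated wild-type cells and 7.44, 7.56 and 7.54 in unstimulated wild-type cells. Its second stimulated wild-type array was far below the rest, the groups overlapped, and the difference of 0.46 (SE 0.20) had an adjusted p of 0.27 in limma. A dimmer probe set for Taf13 gave -0.01 (SE 0.07). Taf2 and Taf8 differed by 0.20 and 0.28, with separated arrays and limma adjusted p of 0.23 and 0.31. Taf11 also had separated arrays, with a difference of 0.11, and Taf3, Taf4, Taf5, Taf7 and Taf10 overlapped; these 6 had adjusted p of 0.49 or more.

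The TAF-related proteins outside the canonical set had differences on both sides of 0. Taf15, an RNA-binding protein, differed by 0.20 with separated arrays (limma adjusted p = 0.18). Taf5l, a SAGA subunit, had 7.28, 6.92 and 7.21 in knock-down cells, 7.43, 7.41 and 7.31 in stimulated wild-type cells and 7.57, 7.35 and 7.05 in unstimulated wild-type cells. It was wholly lower than stimulated wild type but overlapped unstimulated wild type, and its difference of -0.25 (SE 0.14, limma adjusted p = 0.41) was the most negative of the 47. Taf6l, Taf4b, Taf7l and Taf7l2 had adjusted p of 0.74 or more.

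Tbp, which bends DNA at the TATA box, had 7.77, 7.78 and 7.82 in knock-down cells, 7.70, 7.78 and 7.75 in stimulated wild-type cells and 7.88, 7.80 and 7.54 in unstimulated wild-type cells. The difference between stimulated groups was 0.05 (SE 0.09, 95% interval -0.15 to 0.25, limma adjusted p = 0.85). The study used Tbp mRNA to normalise its PCR measurements. The TBP relative Tbpl1, which does not bind the TATA box, differed by 0.23 (SE 0.08, limma adjusted p = 0.15), and its knock-down arrays lay above the stimulated wild-type arrays.

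Of the 7 subunits that belong to pol-II alone, 6 had a difference above 0, with a median of 0.08. Polr2a, which carries the catalytic centre and the repeated tail that TFIIH phosphorylates, had 9.37, 9.31 and 9.20 in knock-down cells, 9.02, 9.06 and 8.78 in stimulated wild-type cells and 9.06, 9.09 and 8.67 in unstimulated wild-type cells. All knock-down arrays lay above all wild-type arrays. The difference from stimulated wild type was 0.34 (SE 0.12, 95% interval 0.06 to 0.62, limma adjusted p = 0.18; with array number as a block, 0.036). Polr2c, which pairs with Polr2j to start assembly of the enzyme, had 8.63, 8.79 and 8.67 in knock-down cells, 8.90, 8.84 and 8.81 in stimulated wild-type cells and 8.89, 8.84 and 8.67 in unstimulated wild-type cells. It was the one pol-II subunit whose knock-down arrays lay wholly below the stimulated wild-type arrays, with a difference of -0.16 (SE 0.08, limma adjusted p = 0.38). A dimmer probe set for Polr2c gave -0.05 (SE 0.11). Polr2b, the second-largest subunit, and Polr2d, Polr2g, Polr2i and Polr2j had adjusted p of 0.57 or more.

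The 5 subunits shared with RNA polymerases I and III had a median difference of 0.16. Of these, Polr2f (0.26) and Polr2h (0.28) had arrays separated upward, with limma adjusted p of 0.19 and 0.34. Of all probe sets, 10.9% separated upward and 10.0% downward, and of the brighter ones 18.5% and 14.5%. A dimmer probe set for Polr2h gave 0.27. Polr2m, a protein that associates with the polymerase, differed by 0.15 with separated arrays (limma adjusted p = 0.43). TFIIF was uneven, with 0.29 for Gtf2f1, its large subunit (limma adjusted p = 0.23), and -0.01 for Gtf2f2, its small one. Both TFIIE genes differed by 0.04 or less. The 4 TFIIH genes of the Gtf2h series differed by -0.08 to 0.11, and 0 of them separated.

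After 1 h with TNF-α in wild-type cells, 0 of the 47 genes were called higher and 0 lower by limma, against 0.111% of all probe sets called higher and 0.00427% called lower, and 0.222% and 0.00854% of the brighter ones. With array number as a block the counts were again 0 and 0, against 0.218% and 0.0171% of all probe sets. At an unadjusted p under 0.05, 2 were higher (Polr2k and Taf7) and 2 lower (Polr2i and Gtf2h4), against 3.52% and 3.58% of all probe sets. The differences ran between -0.34 and 0.25, 46 of 47 were within 1.2-fold, and for 46 the 95% interval stayed within 1.5-fold. The median was -0.06, against -0.02 over all probe sets and -0.05 over the brighter ones, and 15 genes (31.9%) were above 0, against 44.9% of all and 31.1% of the brighter probe sets. In 9 genes (19.1%) all stimulated arrays lay below all unstimulated ones, against 6.18% of all and 9.99% of the brighter probe sets, and in 1 (2.13%) above, against 4.01% and 3.16%.

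Polr2i encodes the subunit Rpb9, which in yeast affects the choice of start site and the fidelity of copying. It had 5.45, 5.50 and 5.42 in stimulated wild-type cells and 5.88, 5.83 and 5.66 in unstimulated wild-type cells. The groups did not overlap, and the difference was -0.34 (SE 0.07, 95% interval -0.50 to -0.17, limma adjusted p = 0.28). The knock-down arrays, at 5.49, 5.52 and 5.52, lay near the stimulated wild-type values. Gtf2h4, a TFIIH core subunit, had 6.96, 6.99 and 6.78 in stimulated wild-type cells and 7.12, 7.24 and 7.05 in unstimulated wild-type cells, a difference of -0.23 (SE 0.08, limma adjusted p = 0.67). All 4 TFIIH genes had differences below 0 (median -0.13), and 3 had separated arrays, where 6.18% of all and 9.99% of the brighter probe sets separated downward and 31.1% of the brighter ones were above 0. Polr2e, a shared subunit, had 8.06, 8.07 and 7.84 in stimulated wild-type cells and 8.17, 8.25 and 8.10 in unstimulated wild-type cells, a difference of -0.19 (SE 0.09, limma adjusted p = 0.72).

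In the other direction, Polr2k, the shared zinc-binding subunit Rpb12, had 5.37, 5.25 and 5.29 in stimulated wild-type cells and 5.15, 4.97 and 5.06 in unstimulated wild-type cells. It was the one gene with all stimulated arrays above all unstimulated arrays, by 0.24 (SE 0.07, limma adjusted p = 0.6), and RefSeq lists a pseudogene named for it. Taf7, which restrains the enzymatic activities of Taf1, had 4.51, 4.48 and 4.68 in stimulated wild-type cells and 4.20, 4.53 and 4.19 in unstimulated wild-type cells (difference 0.25, SE 0.11, limma adjusted p = 0.7). Taf4b, a gonad-enriched relative of Taf4, had 6.20, 6.18 and 6.0 in stimulated wild-type cells and 6.22, 6.18 and 5.59 in unstimulated wild-type cells, and its difference of 0.13 turned to -0.07 without the third unstimulated array. The genes whose products the study followed at promoters or used for normalisation had small differences, with 0.02 for Polr2a (95% interval -0.27 to 0.30), -0.12 for Gtf2b, -0.09 for Taf1 and 0.00 for Tbp (95% interval -0.20 to 0.20).

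The difference between stimulated knock-down and unstimulated wild-type cells combines the knock-down and the stimulation, and it shares arrays with both comparisons above, so it is not independent of them. It had 2 genes called higher and 1 lower (limma, Benjamini-Hochberg), against 3.64% and 4.62% of all and 6.04% and 8.12% of the brighter probe sets. With array number as a block 4 were higher and 1 lower, against 5.18% and 6.87%, and without adjustment 10 were higher and 3 lower, against 9.15% and 11.4%. Taf9b differed by 0.92 (SE 0.20, limma adjusted p = 0.024), Gtf2a1 by 0.44 (SE 0.10, limma adjusted p = 0.028) and Polr2i by -0.28 (SE 0.07, limma adjusted p = 0.0466). Gtf2a2 came next with 0.30 (SE 0.08, limma adjusted p = 0.0522), Polr2a had 0.36 (SE 0.12, limma adjusted p = 0.13) and Gtf2b 0.25 (limma adjusted p = 0.16). Polr2e had 7.83, 8.05 and 7.94 in knock-down cells, all below the unstimulated wild-type arrays given above (difference -0.24, limma adjusted p = 0.17). The arrays separated upward for 13 genes (27.7%, against 10.8% of all and 16.5% of the brighter probe sets) and downward for 4 (8.51%, against 12.6% and 20.4%). The median of the 47 was 0.06, against -0.01 over all probe sets, and it turned to -0.04 without the third unstimulated array. Polr2i kept its call without the third unstimulated array only (limma adjusted p = 0.017) and lost it without any other single array of the comparison, with an adjusted p of up to 0.14. Taf9b and Gtf2a1 both lost theirs without knock-down array 2 or 3 or the first unstimulated array, Taf9b also without the third unstimulated array and Gtf2a1 without the second (adjusted p up to 0.097 and 0.098).

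Genes around the core machinery were counted from lists of named factors. Among 21 pausing and elongation factors, 1 was called higher and 1 lower in stimulated knock-down against stimulated wild-type cells, and over all probe sets 3.36% were called higher and 2.60% lower. Hexim1, the inhibitor of the elongation kinase P-TEFb, averaged 7.95 in knock-down and 7.43 in wild-type cells (difference 0.52, SE 0.07, limma adjusted p = 0.0026). Ell2, a subunit of the super elongation complex, averaged 7.13 in knock-down and 7.83 in wild-type cells (difference -0.70, SE 0.10, limma adjusted p = 0.0048). Both kept their calls without any single array, while the median of the list was 0.06.

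Among 5 TFIIH subunits named outside the Gtf2h series, Mnat1, the assembly factor of the kinase Cdk7, was called higher (0.31, SE 0.08, limma adjusted p = 0.0496), a call that was lost with array number as a block (0.0524) and when any single array was left out (adjusted p up to 0.16); the list's median was -0.11. None of 16 polymerase assembly and tail-modifying enzymes (0 higher, 0 lower) and none of 3 TBP regulators (0 higher, 0 lower) were called. At an unadjusted p under 0.05 the assembly list had 2 higher and 2 lower, and the TBP list 0 and 0. Of all probe sets, 9.34% were higher and 8.09% lower at that threshold. Of 29 subunits and factors of RNA polymerases I and III, Brf1, part of TFIIIB, was higher (0.45, SE 0.09, limma adjusted p = 0.022) and 0 were lower, and with array number as a block 1 was higher and 5 lower, against 4.94% and 4.07% of all probe sets; the list's median was -0.00. The Brf1 call was lost without knock-down array 1 or 3 or stimulated wild-type array 1 or 2 (adjusted p up to 0.085).

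With TNF-α in wild-type cells, 0 genes of these 5 lists were called in either direction by limma, with or without array number as a block, and the medians of the lists lay between -0.12 and -0.03. Without adjustment, 1 gene of the lists was higher and 6 were lower at the same threshold, against 3.52% and 3.58% of all probe sets. In stimulated knock-down against unstimulated wild-type cells, Hexim1 was higher (0.35, SE 0.07, limma adjusted p = 0.014). The polymerase I and III list had 4 genes lower and 0 higher, with a median of -0.13, against 4.62% and 3.64% of all probe sets: Polr3e (-0.62, SE 0.11), Taf1b (-0.77, SE 0.15), Gtf3a (-0.63, SE 0.12) and Gtf3c4 (-0.37, SE 0.10), with limma adjusted p of 0.011, 0.013, 0.011 and 0.0457. Polr3e is a subunit of RNA polymerase III, Taf1b of the polymerase I factor SL1, and Gtf3a (TFIIIA) and Gtf3c4 (a TFIIIC subunit) serve polymerase III. The Gtf3c4 call was lost without any array but knock-down array 2 (adjusted p up to 0.15), and that of Gtf3a without the first unstimulated array (0.0516). Rpap1, an assembly factor of pol-II, was lower (-0.41, SE 0.09, limma adjusted p = 0.029), but not without knock-down array 1 or 2 or the first or second unstimulated array (adjusted p up to 0.1). With array number as a block, against 5.18% of all probe sets higher and 6.87% lower, the polymerase I and III list had 1 gene higher and 8 lower, the elongation list 1 and 1 (Ell2 at -0.39, limma adjusted p 0.04, against 0.0512 without the block), the assembly list 0 and 2, and the TFIIH list 0 and 1. In this comparison same-numbered arrays did not all deviate together.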

How the data were processed

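Total RNA of 9 cultures was hybridised to Affymetrix Mouse Gene ST arrays. The authors deposited log2 values from RMA, which corrects background, normalizes arrays to one another and summarises probes; its version and the genome build are not given in the sources used here. Values were used as deposited. Of the 35557 probe sets, 12147 have no gene name here; the 23410 others were tested (21789 with a single symbol, 1621 with more), and 2 with several symbols fitting the rule were left out. All 9 arrays entered 1 limma model of the group means (lmFit and eBayes of limma 3.58.1 in R 4.3.3; prior degrees of freedom 3.20), with Benjamini-Hochberg adjustment over 23410 probe sets and a threshold of 0.05; the number of arrays limits the precision. Motifs were searched with Python 3.11.15.

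Arrays with the same number had correlated deviations from the group means for the knock-down difference (correlations 0.147 to 0.465) and the TNF-α response (0.11 to 0.403), so the number was also used as a block; this pairing comes from the data, not from the labels. The genes, lists and tests were chosen with earlier results of these data known. Genes were given per array where they had an adjusted p under 0.05 or an unadjusted p under 0.01, were among the 3 highest or 3 lowest differences of a comparison, were assayed otherwise in the study (Polr2a, Gtf2b, Taf1, Tbp), or were the brightest or dimmest. Alternatives were the block, centring, repeated quantile normalization, other probe set filters, only the 2 groups compared, a variance trend, and leaving out each array.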

Additional observations from a re-analysis of the deposited data

How the results depend on the processing

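With 3 arrays a group and a median standard error of 0.10, small differences cannot be seen here, and the counts of called genes moved with the settings; where no reason is given by the setting itself, the cause was not tested. For stimulated knock-down against stimulated wild type, 2 genes were called, against 4 with the replicate block, 4 with arrays centred on the median, 1 with only the 6 arrays of these groups (Taf12, limma adjusted p 0.0498, with Gtf2a1 at 0.055 and Taf9b at 0.091), 1 with all deposited probe sets (Gtf2a1; Taf9b had 0.077) and 4 among probe sets brighter than the median. All these calls were higher in the knock-down. Of all probe sets tested in each setting, 3.36% were called higher as reported, 4.94% with the block and 4.11% with centring. The share was 2.52% with the 6 arrays, 1.47% with all deposited probe sets and 7.72% among the brighter ones. The shares called lower, in the same order, were 2.60%, 4.07%, 1.94%, 1.95%, 1.16% and 5.81%. Leaving out 1 array gave 0 to 2, against 1.81% to 2.82% of all probe sets called higher and 1.34% to 1.91% lower. The median of 0.08 became 0.13 with centring and 0.11 among the brighter probe sets, and ran between 0.07 and 0.12 with one array left out. Gtf2b and Taf6 passed with centring (limma adjusted p 0.042 and 0.041).

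For TNF-α, 0 genes were called under every alternative, and the replicate block changed no call there. The median of -0.06 became -0.12 with centring and -0.02 with quantile normalization, and lay between -0.10 and -0.02 with one array left out. Differences near 0 changed sign: Polr2a, 0.02 as reported, had -0.04 with centring and -0.02, -0.04 and -0.12 without stimulated array 1, stimulated array 2 and unstimulated array 3, and Tbp, 0.00 as reported, had -0.05 with centring and -0.01, -0.00 and -0.09 without stimulated array 2, stimulated array 3 and unstimulated array 3. Taf4b, 0.13 as reported, had -0.07 without unstimulated array 3 and 0.24 at most without another.

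For stimulated knock-down against unstimulated wild type, 3 genes were called, against 5 with the replicate block (Polr2a and Polr2h added; here same-numbered arrays did not all deviate together, with a lowest correlation of 0.00218), 0 with all deposited probe sets and 0 to 2 with one array left out. Of all probe sets, 3.64% were called higher and 4.62% lower as reported, and 5.18% and 6.87% with the block. The median of 0.06 became 0.09 with quantile normalization and -0.04 without unstimulated array 3, where Tbp had -0.05. Polr2i lost its call with centring, quantile normalization, only 6 arrays, all deposited probe sets and a variance trend (limma adjusted p up to 0.096).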

Other observations

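RMA summaries can be exactly equal on several arrays. Of the 47 genes, 18 (38.3%) had at least 2 of the 9 arrays at exactly 1 value, against 58.9% of the tested probe sets, and 4 (8.51%) had at least 4 such arrays, against 20.3%. These 4 were Polr2b, Taf10, Gtf2a1l and Taf7l2. Polr2b, the second-largest pol-II subunit, had 10.05, 10.05 and 10.05 in knock-down cells, 10.05, 10.05 and 9.81 in stimulated wild-type cells and 10.10, 10.08 and 10.01 in unstimulated wild-type cells. Taf10, a histone-fold TAF shared by TFIID and SAGA, had 7.76, 8.03 and 7.91 in knock-down cells, 7.96, 7.96 and 7.96 in stimulated wild-type cells and 8.12, 7.96 and 7.96 in unstimulated wild-type cells. None of these 4 genes was called in any comparison, and the part of equal values in the results was not tested.

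For 5 of the 47 genes a second, dimmer probe set was on the array. In the knock-down difference it gave 0.27 for Polr2h, against 0.28 for the brighter one, 0.13 for Polr2l, against 0.16, and -0.05 for Polr2c, against -0.16. For Taf13 it gave -0.01, against 0.46, and for Taf10 0.01, against -0.05. None of the dimmer probe sets had an adjusted p under 0.34 in limma for this difference.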
